A study of Mus musculus with 9 samples.

Results

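The baseline transcriptome of control RAW264.7 cells was described as the level and the rank of each gene in 3 RNA-seq libraries labeled NC siRNA. RAW264.7 is an established mouse macrophage line. According to the labels, the cells were transfected with a control siRNA at 60 nM for 6 h with a Lipofectamine reagent, kept in complete DMEM for 12 h and stimulated with lipopolysaccharide (LPS) at 100 ng/ml for 24 h. The titles of the libraries end in 6H. The methods of the study also name IFN-γ, another medium and a lower concentration of siRNA, which the labels do not. The series holds 9 libraries, and the 6 others, labeled SFRP2 siRNA and RAB6A siRNA, were not used. Genes were taken as expressed at a mean of at least 0.5 FPKM (fragments per kilobase of exon, scaled to the size of the library) over the 3 libraries, which kept 11979 of 28137 genes, or 42.6%. Of the 16894 protein-coding genes in the table, 59.3% were expressed, a share to set beside the count of expressed genes in each list. No unstimulated and no untransfected library belongs to the group, so the levels do not show which genes were induced by LPS. Nothing in the labels states that the libraries came from separate cultures, and the SD given after each mean (n = 3) may therefore be technical.

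Macrophages sense LPS of Gram-negative bacteria through CD14, MD-2 (Ly96) and Toll-like receptor 4. The receptor signals through MyD88 to NF-κB and MAP kinases, which drive cytokine and chemokine genes, and through TRIF (Ticam1) to interferon-β, which acts back on the cells and drives interferon-stimulated genes. Activated mouse macrophages are also known for nitric oxide made by iNOS (Nos2), itaconate made by Acod1 and a shift of energy metabolism towards glycolysis.

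The labels name an NC siRNA without its sequence. The control siRNA shown is the one listed in the supplement of the study, and its use in these libraries was assumed. Its strands are listed below without their dTdT ends, with bases 2 to 8 of the antisense strand, the seed, in capitals.
Sense strand: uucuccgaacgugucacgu
Antisense strand: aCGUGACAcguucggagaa
The 19 bases of the duplex were found on neither strand of any of 141767 mouse transcripts. The site complementary to the seed alone was found in a transcript of 1143 of the 11868 expressed genes with a sequence (9.63%) and of 2.96% of the other annotated genes, which were not matched for transcript length or number. Whether the seed acted on these genes was not tested.

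The 3 libraries held between 41608379 and 47149258 reads, as recovered from the FPKM values, and 20680 to 21128 genes above 0 each. Across the expressed genes, Spearman's rho was 0.99 for each pair of libraries. Of the 3, library 3 was the farthest from the others in 37.9% of expressed genes, library 1 in 30.9% and library 2 in 31.2%. The log2 difference of library 2 minus library 3 also ran with the GC content of the gene (rho across genes -0.41). For library 1 minus library 3 rho was -0.31, and for library 1 minus library 2 it was 0.09. Values of library 3 thus tended to be relatively higher in genes of higher GC content. These 3 correlations are across genes, which are not independent replicates.

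Most markers of macrophages were high, and most of those of other cell types were below 0.5 FPKM. Of 20 macrophage markers, 19 were expressed, with a median of 82.3 FPKM. Cd68, a glycoprotein of lysosomes, was the highest at 1819, 1759 and 1972 FPKM in libraries 1, 2 and 3, the order in which all such triplets are given. Lyz2, the lysozyme of macrophages, had 869, 850.1 and 898 FPKM. Adgre1, which encodes F4/80, was at 55.2, 55.6 and 58.2 FPKM, and Csf1r, the receptor for macrophage colony-stimulating factor, at 79.3, 63.9 and 77.6 FPKM. For Csf1r, library 2 was lower than the other two. The marker below the threshold was Mertk, a receptor for dying cells, at 0.0248 ± 0.00687 FPKM. Of the transcription factors of the lineage, 10 of 11 were expressed. Spi1 (PU.1), which sets the myeloid program, had 130.4 ± 9.28 FPKM and Irf8 had 51.3 ± 3.35 FPKM. Of 64 markers of B, T and NK cells, dendritic cells, neutrophils, mast cells, erythroid, endothelial, epithelial and fibroblast cells, 6 reached 0.5 FPKM and 0 reached 10 FPKM. The 6 were Il7r at 9.52 ± 0.782 FPKM, Lck at 6.35 ± 0.431 FPKM, Xcr1 at 1.12 ± 0.107 FPKM, S100a8 at 0.896 ± 0.192 FPKM, Col1a1 at 0.644 ± 0.424 FPKM and Hba-a1 at 0.549 ± 0.586 FPKM. Col1a1 passed through library 1, at 1.13, 0.43 and 0.369 FPKM, and Hba-a1 through library 3, at 0.118, 0.313 and 1.22 FPKM. In bulk RNA, a low level in all cells and a higher one in few cells cannot be told apart. The 64 markers summed to between 23.2 and 24.9 FPKM per library, against a mean sum of 6131 FPKM for the macrophage markers. Among the markers at 0 in all 3 libraries were Cd3g, Elane, S100a9 and Flt3. The means of Il7r and Lck, both listed for T cells, were above the median of the expressed genes, 5.62 FPKM.

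Levels of expressed genes spanned more than 4 orders of magnitude, with a median of 5.62 FPKM and quartiles of 2.08 and 15.2 FPKM. Between 0.5 and 1 FPKM lay 1398 genes, between 1 and 10 FPKM 6470 genes, between 10 and 100 FPKM 3707 genes and between 100 and 1000 FPKM 377 genes. The 27 genes at 1000 FPKM or more carried 40% of the summed FPKM of all genes. The 10 highest genes took 31.9 ± 1.11% and the 100 highest 50.5 ± 0.998% of it. Counted as recovered reads, which are not scaled to gene length, these shares were 13.3 ± 0.829% and 27.2 ± 0.895%. Reads could not be recovered for genes without a length in the annotation used here, among them the gene at rank 5. Such genes are missing from these 2 shares and from the total, so the shares of reads and of FPKM are not over the same genes. Among the genes at the threshold, Gm20717 (0.501 ± 0.0835 FPKM), Dlx1as (0.501 ± 0.284 FPKM) and Myh7b (0.5001 ± 0.113 FPKM) lay just inside. Gm6745 (0.4999 ± 0.182 FPKM), Gm47963 (0.499 ± 0.0533 FPKM) and Gm12589 (0.499 ± 0.176 FPKM) lay just outside.

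**Figure D1:**
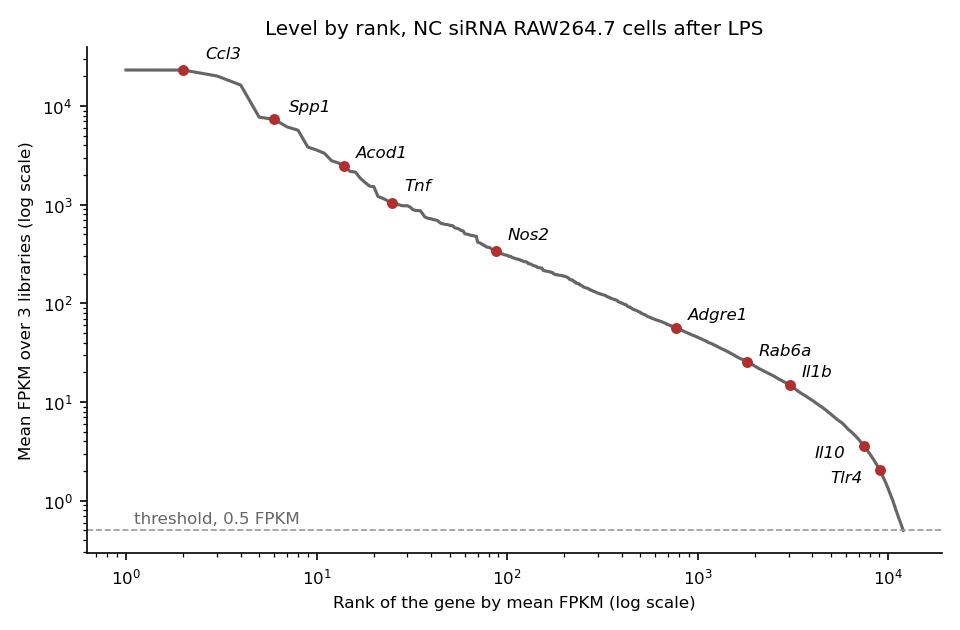
Mean FPKM over the 3 NC siRNA libraries of each of the 11979 expressed genes (y axis, log scale) against its rank (x axis, log scale). Named genes are marked, from Ccl3 at rank 2 to Tlr4 at rank 9044, and the dashed line is the threshold of 0.5 FPKM.

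The highest transcripts were those of mitochondria and a few immune genes. mt-Co1, a subunit of cytochrome c oxidase encoded in the mitochondrial genome, had 22629.9, 24782 and 22231 FPKM. Ccl3, the chemokine MIP-1α, had 21914, 23029 and 24603 FPKM. Ccl3 was the lower of the pair in libraries 1 and 2 and the higher in library 3, so their order was within the spread between libraries. mt-Nd1 followed at 20209 ± 2070.1 FPKM and mt-Cytb at 16352 ± 2079 FPKM. Spp1, which encodes the secreted phosphoprotein osteopontin, was at rank 6 with 6975, 7188 and 7815 FPKM. B2m, the light chain of MHC class I, had 3466, 4044 and 4012 FPKM, with library 1 below the other two. Fth1, the heavy chain of ferritin, had 3111, 3399 and 3465 FPKM. Further immune genes among the 25 highest were Acod1, Ccl2, Cd68, Cd14, Ccl4 and Tnf. Eef1a1 and Eef2, which carry translation elongation, had 2791 ± 137 and 1215 ± 73.1 FPKM, and Odc1, the first enzyme of polyamine synthesis, had 1523 ± 90.1 FPKM. mt-Nd2 (6157 ± 879 FPKM), mt-Nd5 (5694 ± 633 FPKM), mt-Nd4 (2179 ± 169.6 FPKM), mt-Nd6 (1127 ± 294 FPKM) and mt-Tp (1072 ± 77.1 FPKM) also came from the mitochondrial genome. Gm7993 (3590.0 ± 196 FPKM), Gm6166 (2654 ± 146 FPKM) and Gm13394 (1171 ± 105 FPKM) are annotated as processed pseudogenes. The identifier at rank 5, ENSMUSG00000119584, has no name in the annotation used here and had 9325, 6239.9 and 7623 FPKM.

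**Figure D2:**
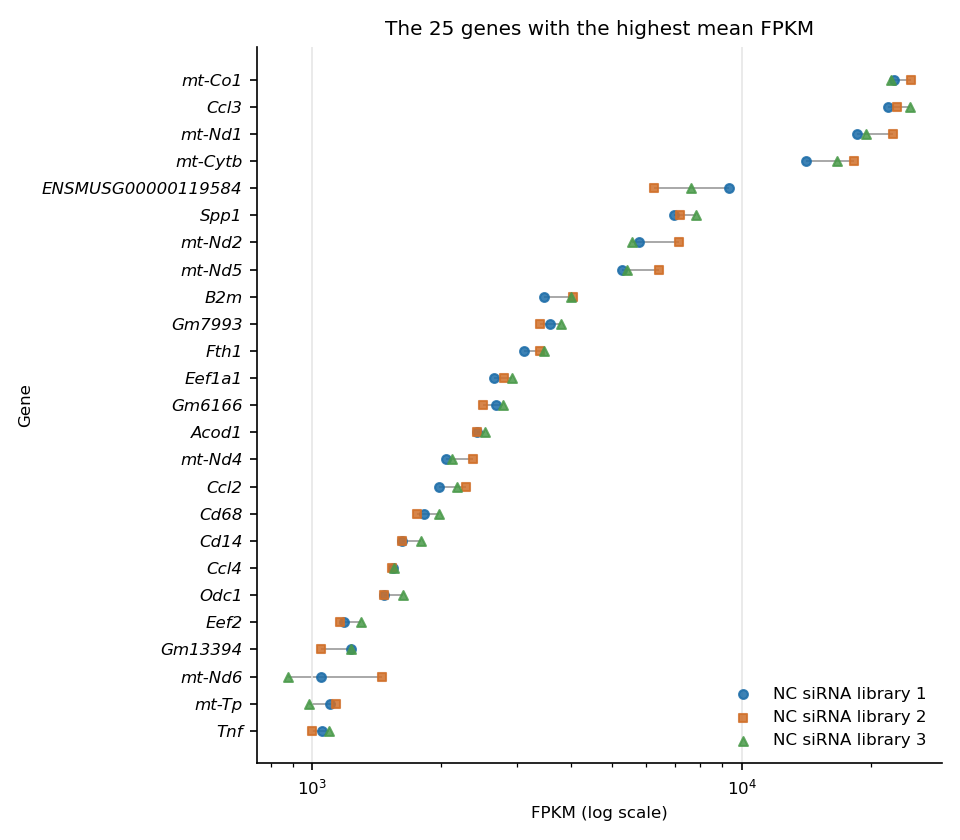
FPKM (x axis, log scale) of the 25 genes with the highest mean (y axis) in each of the 3 NC siRNA libraries (symbols), with a line from the lowest to the highest library. The symbols of mt-Co1 and Ccl3 overlap between 22231 and 24603 FPKM, and mt-Nd6 has a wide spread, from 879 to 1452 FPKM.

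Transcripts of the mitochondrial genome took 21 ± 1.71% of the summed FPKM and 9.89 ± 0.85% of the recovered reads. All 13 of its protein genes were expressed, over a wide range. The 5 highest, mt-Co1, mt-Nd1, mt-Cytb, mt-Nd2 and mt-Nd5, had 5694 FPKM or more. mt-Co2 and mt-Co3, the other core subunits of cytochrome c oxidase, had 147, 192 and 246 FPKM and 17.5, 17.8 and 37.3 FPKM, and library 3 was the highest for both. mt-Atp6 of the ATP synthase had 69.5, 88.8 and 114 FPKM, and the lowest of the 13, mt-Nd3 of complex I, 1.1, 0.853 and 0.811 FPKM. Most of the low genes have sequence that occurs again elsewhere. Of the windows of 100 bases in a gene's main transcript, 99.5% of mt-Co2, 99.9% of mt-Co3, 99.5% of mt-Atp6, 98.5% of mt-Nd4l and 97.6% of mt-Nd3 were found exactly in a transcript of another gene, against 0% for mt-Nd1, mt-Cytb and mt-Nd5. mt-Atp8, at 22.1, 21.3 and 13.5 FPKM, was low with 0% of its windows shared. mt-Co1, with 30.8%, and mt-Nd4, with 60.8%, were high. How reads of shared sequence were assigned was not stated, and its part in these levels was not tested.

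Of the genes that sense LPS, the co-receptor was high and the receptor low. Cd14, which hands LPS to the receptor, had 1621, 1620.4 and 1795 FPKM, with library 3 the highest. Tlr4 itself was at 2.37, 1.85 and 1.88 FPKM, at rank 9044 of the expressed genes, and its partner Ly96 (MD-2) at 15.7, 15.2 and 13.8 FPKM. All 3 libraries of Ly96 were above all 3 of Tlr4. Cd180 (RP105), a relative of Tlr4, had 135 ± 3.92 FPKM and its partner Ly86 8.1 ± 0.583 FPKM, and Lbp, the LPS-binding protein of serum, was below the threshold at 0.317 ± 0.0678 FPKM. Of 10 other Toll-like receptors in the table, 7 were expressed. The highest were Tlr2, for lipoproteins, at 75.3 ± 2.17 FPKM, Tlr7, for single-stranded RNA, at 41.2 ± 2.55 FPKM and Tlr9, for CpG DNA, at 23.4 ± 1.75 FPKM. Tlr8 and Tlr12 were at 0 in all 3 libraries and Tlr5, for flagellin, at 0.0164 ± 0.0133 FPKM.

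The signaling chain below the receptor was expressed almost whole. Of 8 adaptors, 7 were expressed, with Pik3ap1 (BCAP) at 99.7 ± 3.14 FPKM, Ticam1 (TRIF) at 43.8 ± 4.15 FPKM and Myd88 at 22 ± 1.19 FPKM, while Sarm1 was at 0.0251 ± 0.0176 FPKM. All 16 kinases and kinase-binding proteins of the list were expressed, with a median of 10.4 FPKM. They ran from Tab2, at 47.4 ± 2.15 FPKM, and Tbk1, at 29.4 ± 1.31 FPKM, to Map3k8 (TPL2), at 2.92 ± 0.38 FPKM. All 5 NF-κB subunits were expressed. Rel (c-Rel) had 42.3, 42.8 and 40 FPKM and Rela (p65) 35.2, 36.7 and 38.2 FPKM, so that Rel was the higher in each library, with a ratio of Rela to Rel of 0.881 ± 0.0649. Relb was the lowest, at 2.64 ± 0.171 FPKM. The 6 inhibitors and cofactors of the list had a median of 38.1 FPKM against 22.4 FPKM over the subunits, with overlapping ranges, from Nfkbie at 3.5 ± 0.159 FPKM upwards. Nfkbia, which encodes IκBα, had 221, 204 and 204 FPKM and Nfkbiz 182, 201 and 194 FPKM. Genes that damp the pathway were all expressed, 18 of 18. Socs3, which inhibits cytokine receptors, had 248 ± 11.1 FPKM, Tnip1, a partner of A20, 192 ± 10.2 FPKM and Zfp36 (tristetraprolin), which destabilizes cytokine mRNAs, 157 ± 8.15 FPKM. Tnfaip3 (A20) was at 19.2 ± 0.437 FPKM, Irak3 at 21.6 ± 0.643 FPKM and Cish, the lowest, at 0.504 ± 0.10 FPKM.

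Inflammatory cytokine mRNAs were unequal in level. Tnf, the tumor necrosis factor, had 1055, 998 and 1096 FPKM. The subunits of IL-27, Il27 and Ebi3, had 126, 131 and 136 FPKM and 106, 99.7 and 105 FPKM. Il6 had 87, 106 and 94.3 FPKM, and Tnf was higher by 11.0 ± 1.46 times. Il1b, for IL-1β, had 14.6, 14.7 and 15.7 FPKM, and Tnf was higher by 70.1 ± 2.28 times. Il1a was lower than Il1b in each library, at 7.05, 9.58 and 7.69 FPKM. Of the 14 inflammatory cytokines in the table, 12 were expressed, and the other two were Il12b, of IL-12 and IL-23, at 0.428, 0.237 and 0.167 FPKM and Ifnb1, for interferon-β, at 0.192, 0.509 and 0.627 FPKM. The 2 Ifnb1 values of libraries 2 and 3 were above 0.5 FPKM. Il1rn, the natural antagonist of the IL-1 receptor, was among the highest cytokines with 645, 621 and 633 FPKM, and the anti-inflammatory Il10 had 4.02, 3.38 and 3.47 FPKM. Of the colony-stimulating factors, Csf3 (G-CSF) had 648, 596 and 609 FPKM, Csf2 (GM-CSF) 57.4 ± 0.99 FPKM and Csf1 (M-CSF) 9.21 ± 0.0904 FPKM.

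Chemokine ligands took 7.74 ± 0.306% of the summed FPKM, and Ccl3 made up 81.4 ± 0.833% of their sum. Of 26 ligands in the table, 16 were expressed, beside 59.3% of all protein-coding genes. Ccl2 (MCP-1), which attracts monocytes, had 1978, 2276 and 2174 FPKM and Ccl4 (MIP-1β) 1545, 1532 and 1554 FPKM. Ccl3 and Ccl4 lie in the same cluster of mouse chromosome 11 (GRCm38), Ccl3 on the minus strand at chr11:83647844-83649355 and Ccl4 on the plus strand at chr11:83662584-83664683, and Ccl3 was higher by 15.0 ± 0.824 times. Ccl4 had one of the smallest spreads of any gene at 100 FPKM or more, with a coefficient of variation (CV, the SD in percent of the mean) of 0.707%. Ccl9 had 933, 997 and 906 FPKM and Ccl5 (RANTES) 142, 165 and 169.8 FPKM. Of the CXC ligands, Cxcl2, which attracts neutrophils, had 361, 282 and 286 FPKM, with library 1 the highest. Cxcl10, an interferon-inducible ligand of CXCR3, had 100.0, 108 and 103 FPKM. Other neutrophil attractants were near 0, with Cxcl1 at 0.0561 ± 0.0512 FPKM, Cxcl3 at 0.0893 ± 0.0527 FPKM and Cxcl5 at 0.0576 ± 0.016 FPKM. Ccl24, which attracts eosinophils, was at 0. Of 14 receptors for chemokines and other attractants, 8 were expressed (57.1%), which is near that share. C3ar1, for the complement peptide C3a, had 188 ± 10.6 FPKM, Cx3cr1, for fractalkine, 21.2 ± 0.943 FPKM and Ccr1 3.79 ± 0.644 FPKM. Ccr2, the receptor of Ccl2, was at 0.167 ± 0.0263 FPKM.

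**Figure D3:**
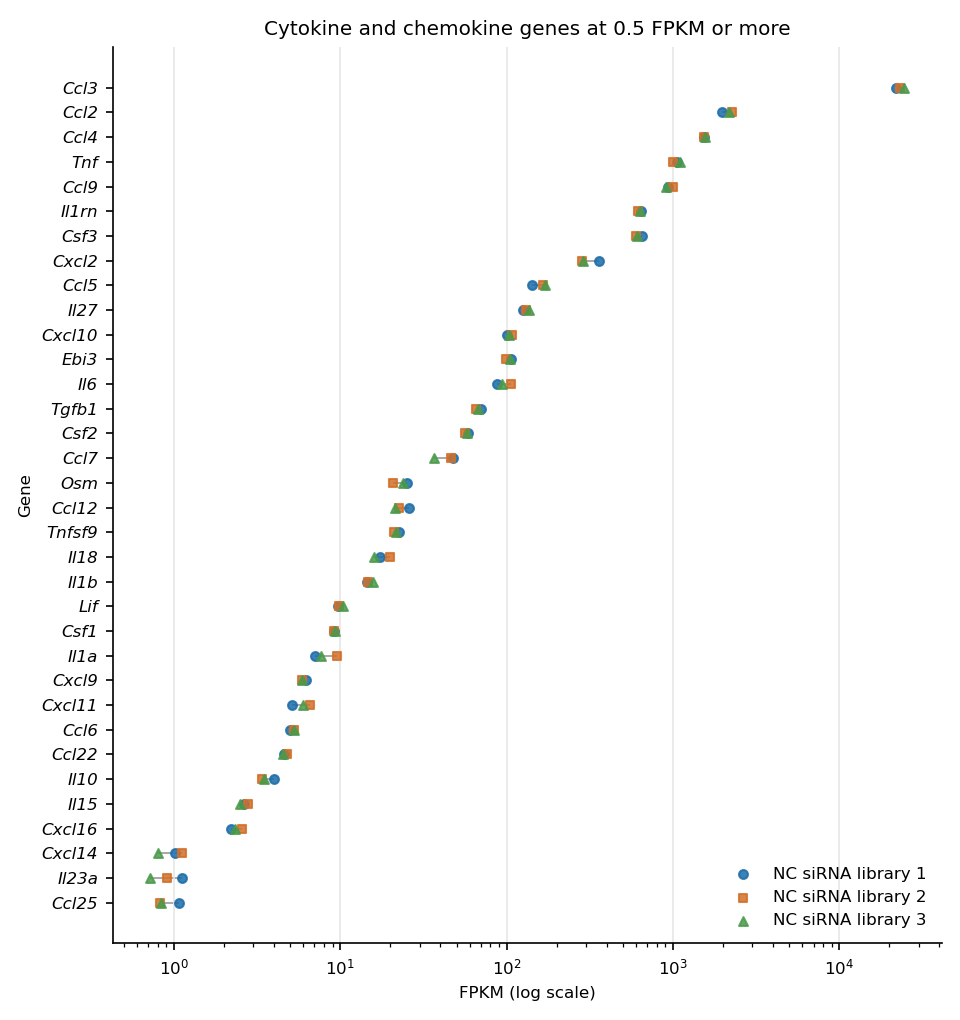
FPKM (x axis, log scale) of the cytokine and chemokine genes at a mean of 0.5 FPKM or more (y axis, ordered by mean) in each of the 3 NC siRNA libraries (symbols), with a line from the lowest to the highest library. The symbols of Ccl3, at 21914 FPKM or more, stand apart from all other genes, and the next, Ccl2, is at 2276 FPKM or less.

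Promoters of these genes were searched for 2 motifs in RefSeq sequences (GRCm38.p6) that reach from 250 bases before the start of the gene to 50 after it. A promoter was matched by symbol to 8338 of the expressed genes. The NF-κB consensus, on either strand before the start, was found in 7.25% of all 32851 promoters and 8.91% of those of expressed genes. It was found in 14.0% of the 343 promoters of genes at 100 FPKM or more. Among expressed cytokines and chemokine ligands, it was in 8 of 24 promoters (33.3%), which belong to 21 genes. A TATAAA box between 40 and 20 bases before the start was found in 1.87% of all promoters and 0.963% of those of expressed genes. It was in 2.92% of the promoters of genes at 100 FPKM or more and in 4 of the 24. The stretches below, of 60 bases within the 250 before the start, were picked for a match from a longer list of genes searched. The start is the one in RefSeq. For Acod1, the annotation used for the levels starts the gene earlier, at chr14:103046977, so that its TATAAA box lies inside the gene as annotated there. No stretch came from Ccl3, Ccl2 or Ccl4, and Tnf and Acod1 gave none for NF-κB. Among 7 promoters of expressed CC ligands, 1 held the NF-κB consensus and 1 the TATAAA box. The NF-κB match is in capitals for the first 4 stretches and the TATAAA box for the last 2.
Cxcl2, chr5:90903781-90903840, plus strand: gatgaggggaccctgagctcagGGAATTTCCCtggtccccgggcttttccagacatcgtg
Nfkbia, chr12:55492648-55492707, minus strand: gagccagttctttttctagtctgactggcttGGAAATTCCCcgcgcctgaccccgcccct
Cxcl10, chr5:92348955-92349014, minus strand: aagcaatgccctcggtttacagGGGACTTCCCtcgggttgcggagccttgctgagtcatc
Il6, chr5:30013048-30013107, plus strand: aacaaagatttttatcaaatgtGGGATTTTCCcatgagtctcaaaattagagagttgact
Tnf, chr17:35202008-35202067, minus strand: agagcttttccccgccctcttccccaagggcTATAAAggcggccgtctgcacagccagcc
Acod1, chr14:103046952-103047011, plus strand: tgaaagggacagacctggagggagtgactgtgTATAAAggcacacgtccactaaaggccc
A match is a description of the letters in these windows, and no binding was measured.

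Effectors of activated macrophages were led by Acod1, which makes itaconate from a citrate cycle intermediate. Acod1 had 2422, 2422 and 2530.0 FPKM. Ptgs2 (COX-2), for prostaglandin synthesis, had 494, 468 and 513 FPKM and Nos2, for nitric oxide, 333, 319.7 and 368 FPKM. Of the 20 effectors of this list, 15 were expressed. The costimulatory genes Cd40, Cd80 and Cd86 had 66.7 ± 1.29, 53.4 ± 0.621 and 12.5 ± 0.331 FPKM. Sod2, the manganese superoxide dismutase, was at 36.1 ± 0.984 FPKM, and Mmp13, Marco, Cfb, Slc7a2 and Cd38 were each below 0.5 FPKM. Of 13 markers of alternative activation, 5 were expressed. These were Cd36 at 118 ± 11.7 FPKM, Myc at 92.1 ± 1.08 FPKM, Msr1 at 78.5 ± 2.09 FPKM, Il4ra at 1.78 ± 0.058 FPKM and Egr2 at 1.08 ± 0.11 FPKM. The first 3 are also expressed outside alternative activation. Arg1, which competes with Nos2 for arginine, was at 0.173, 0.228 and 0.19 FPKM, Mrc1 (CD206) at 0.0738 ± 0.0187 FPKM and Chil3 at 0.00982 ± 0.017 FPKM, and Pparg was at 0. The median of this list, 0.243 FPKM, was close to that of all genes in the table, 0.194 FPKM.

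Interferon-stimulated genes were expressed throughout, and Ifnb1 was near the threshold. All 24 type I interferon-stimulated genes of the list were expressed, with a median of 49.4 FPKM. Bst2 (tetherin) had 224, 218 and 243 FPKM, Isg15, a ubiquitin-like modifier, 216, 200.4 and 216 FPKM and Oasl1 189.9, 187 and 200.2 FPKM. Rsad2 (viperin) had 79.8 ± 4.59 FPKM and Ifit1 38.7 ± 1.11 FPKM. The lowest was Mx1 at 2.29 ± 0.296 FPKM. Of 10 genes of interferon-γ-inducible GTPases and enzymes, 9 were expressed, with Gbp3 at 112 ± 4.54 FPKM, Gbp2 at 96.9 ± 3.34 FPKM and Irgm1 at 91 ± 1.05 FPKM, and Ido1, which degrades tryptophan, was at 0.00878 ± 0.0152 FPKM. All 16 receptors and factors of the interferon pathway were expressed. Irf7 had 139 ± 5.37 FPKM and Irf5 67.5 ± 2.68 FPKM. Stat2 was at 40.4 ± 1.26 FPKM. All 13 nucleic acid sensors were expressed, with Zbp1 at 58.2 ± 1.42 FPKM, Eif2ak2 (PKR) at 51.2 ± 4.81 FPKM and Cgas at 20.2 ± 0.938 FPKM. All 12 genes of RNA interference were expressed, with a median of 4.79 FPKM. Ago2, the slicing Argonaute, had 17.7, 17.3 and 17.2 FPKM, Dicer1 5.03, 5.4 and 5.1 FPKM and Ago4, the lowest, 0.522, 0.418 and 0.674 FPKM.

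The core of the interferon-stimulated response element is GAAA, any 2 bases and GAAA again. On either strand before the start, this core was found in 2.98% of all promoters and 2.86% of those of expressed genes. It was found in 7 of 20 promoters (35%) of the type I list, which belong to 17 genes. Of the interferon-γ list, 8 of 9 promoters (88.9%) held it, from 8 genes searched. The stretches of 60 bases below are from 5 of these genes, with the match in capitals.
Isg15, chr4:156200847-156200906, minus strand: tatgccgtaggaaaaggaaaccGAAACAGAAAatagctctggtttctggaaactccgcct
Ifit1, chr19:34640782-34640841, plus strand: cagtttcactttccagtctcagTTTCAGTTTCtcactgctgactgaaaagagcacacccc
Rsad2, chr12:26456535-26456594, minus strand: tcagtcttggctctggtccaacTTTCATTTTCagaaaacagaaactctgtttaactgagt
Bst2, chr8:71537559-71537618, minus strand: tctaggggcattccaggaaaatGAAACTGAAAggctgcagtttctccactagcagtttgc
Gbp3, chr3:142559983-142560042, plus strand: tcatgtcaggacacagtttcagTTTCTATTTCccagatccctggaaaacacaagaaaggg
Isg15, Bst2 and Gbp3 stood at 100 FPKM or more, and Ifit1 and Rsad2 below it.

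Genes of MHC class I presentation were high and those of class II were mostly not expressed. All 17 class I genes were expressed, with a median of 60.5 FPKM. Besides B2m, the heavy chains H2-D1 and H2-K1 had 144, 134 and 145 FPKM and 61.1, 61.6 and 66.7 FPKM. Calr, a chaperone of peptide loading, had 701 ± 12.3 FPKM, Tap1, a subunit of the peptide transporter, 37.1 ± 0.851 FPKM and the immunoproteasome subunit Psmb9 8.8 ± 0.233 FPKM. Of 9 class II genes, 3 were expressed (33.3%), against 42.6% of all genes and 59.3% of protein-coding genes in the table. Ctss, the cathepsin that trims the invariant chain, had 488 ± 13.6 FPKM, Cd74, the invariant chain itself, 59.4, 67.2 and 73.4 FPKM and H2-DMa 1.01 ± 0.194 FPKM. The class II chains H2-Ab1, H2-Aa and H2-Eb1 were at 0.459, 0.363 and 0.659 FPKM, 0.0949, 0.0223 and 0.0619 FPKM and 0.185, 0.109 and 0.0484 FPKM. Ciita, the master regulator of class II, was at 0.0101, 0 and 0 FPKM.

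Equipment for phagocytosis and digestion was expressed almost completely. All 7 NADPH oxidase genes were expressed, with a median of 113 FPKM. Rac2, its GTPase, had 219 ± 10.2 FPKM, Cybb (gp91phox) 134 ± 5.25 FPKM and Ncf1 (p47phox) 132 ± 2.02 FPKM. Of 13 cathepsins, 11 were expressed, with Ctsz at 632 ± 34.5 FPKM, Ctss as above and Ctsb at 479 ± 12.6 FPKM. Ctsw and Ctsh were below the threshold, at 0.0937 ± 0.041 and 0.0924 ± 0.020 FPKM. All 20 other lysosomal genes, from Lamp1 at 313 ± 8.58 FPKM to Man2b1 at 3.95 ± 0.0468 FPKM, and all 16 V-ATPase genes, which acidify the lysosome, were expressed. The Fc receptors and their kinases were also expressed, 10 of 10. Fcer1g, the signaling chain of the Fc receptors, had 419 ± 21.3 FPKM and Fcgr1 66.6 ± 1.25 FPKM, and the inhibitory Fcgr2b had 8.59 ± 0.238 FPKM. Of 14 scavenger and lectin receptors 11 were expressed. Clec4d and Clec4e (Mincle), for mycobacterial glycolipids, had 196 ± 1.7 and 67.7 ± 3.78 FPKM, and the β-glucan receptor Clec7a (Dectin-1) 0.594 ± 0.12 FPKM. Marco, Mrc1 and Olr1 were below the threshold. In the inflammasome list, 11 of 12 genes were expressed. Nlrp3, a sensor, had 65.9 ± 1.47 FPKM, Casp1 23.1 ± 1.01 FPKM and Gsdmd, the pore-forming gasdermin, 29 ± 0.54 FPKM. The gene below the threshold was Pycard, which encodes the adaptor ASC, at 0.126, 0.067 and 0.0743 FPKM. All 14 BCL2 family genes were expressed, with Bak1 at 161 ± 13.4 FPKM, Bcl2l1 (BCL-XL) at 126 ± 5.89 FPKM and Bcl2, the lowest, at 0.575 ± 0.0843 FPKM.

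**Figure D4:**
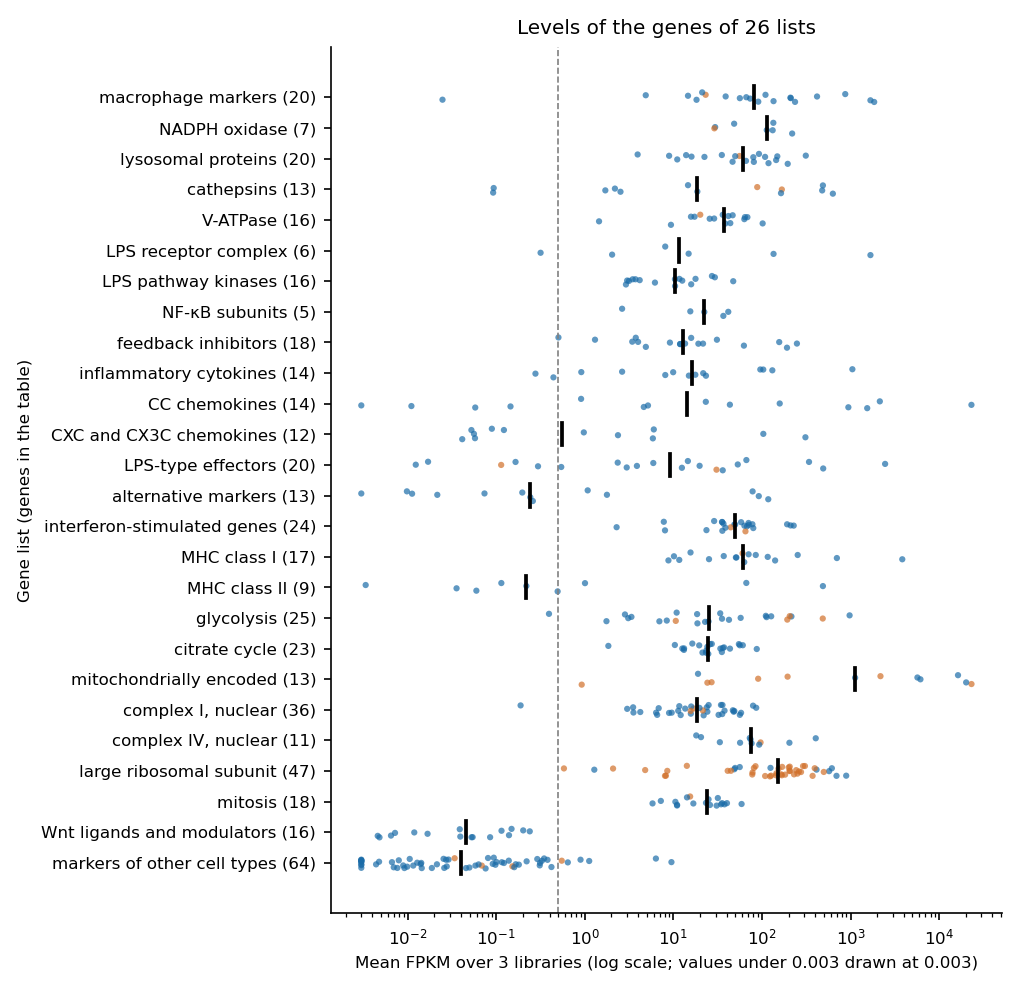
Mean FPKM over the 3 NC siRNA libraries (x axis, log scale) of the genes of 26 lists (y axis, with the number of genes in the table). Each point is a gene, in orange where over 20% of its windows of 100 bases are shared with another gene, the black bar is the median of the list and the dashed line is 0.5 FPKM. The median of the mitochondrially encoded genes, 1127 FPKM, lies farthest to the right, and those of the Wnt ligands and of the 64 pooled markers of other cell types lie at 0.046 and 0.0398 FPKM.

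Of the glycolysis list, from the glucose transporter to lactate export, 24 of 25 genes in the table had 0.5 FPKM or more. Their list had a median of 24.9 FPKM. Aldoa, also written for it, was not found in the table. Pkm, the pyruvate kinase, had 1000.4, 906 and 1022 FPKM and Ldha, the lactate dehydrogenase A, 214, 209.8 and 222 FPKM. Ldhb, the other subunit, was at 0.367, 0.486 and 0.33 FPKM, and Ldha was higher by 562 ± 122 times. Slc2a1 (GLUT1) had 111 ± 9.23 FPKM and Slc2a3 (GLUT3) 3.36 ± 0.433 FPKM. Of the hexokinases, Hk3 had 58.6, 54.6 and 59.3 FPKM, above Hk1 (35.5, 32.8 and 38.1 FPKM) and Hk2 (36, 31.7 and 33.7 FPKM) in all 3 libraries, while Hk1 and Hk2 overlapped. Gapdh was listed at only 8.46, 8.54 and 14.9 FPKM, with 78% of its windows shared with another gene. Pgk1, with 67% shared, had 486 ± 14 FPKM. In the pentose phosphate pathway 7 of 8 genes were expressed, led by G6pdx, which makes NADPH, at 101 ± 5.52 FPKM. Shpk was at 0.49 ± 0.116 FPKM.

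All 23 enzyme genes of the citrate cycle were expressed, with a median of 24.8 FPKM. Mdh2, the malate dehydrogenase, had 87.4 ± 3.55 FPKM and Pcx, the pyruvate carboxylase, which was the lowest, 1.85 ± 0.271 FPKM. Sdha, of succinate dehydrogenase, had 35.3 ± 0.816 FPKM. Of the nuclear genes of the respiratory chain, 35 of 36 of complex I, all 14 of complexes II and III, all 11 of complex IV and all 15 of ATP synthase were expressed, with medians of 18.3, 43.3, 74.4 and 26.9 FPKM. Cox8a, of complex IV, had 405 ± 38.5 FPKM and Atp5a1 272 ± 4.6 FPKM. Ndufb2 of complex I was at 0.188, 0.215 and 0.163 FPKM in the 3 libraries. The median of the 13 mitochondrially encoded genes was 1127 FPKM.

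Iron and redox genes were expressed in 13 of 13 and 18 of 19 cases. Besides Fth1, Hmox1 (heme oxygenase 1), which frees iron from heme, had 769, 629 and 723 FPKM, with library 2 the lowest. The ferritin light chain Ftl1 had 180.4 ± 14.3 FPKM, with 78.6% of its windows shared. Tfrc, the transferrin receptor, had 67.3 ± 5.85 FPKM and Slc40a1 (ferroportin), the iron exporter, 1.08 ± 0.154 FPKM. Sqstm1 (p62) had 329 ± 20.9 FPKM and Prdx1 139 ± 6.11 FPKM, while Nqo1 was below the threshold at 0.0703 ± 0.0373 FPKM. Of 18 lipid genes 16 were expressed. Lpl, the lipoprotein lipase, and Plin2, which coats lipid droplets, had 110.2 ± 6.58 and 102 ± 11.8 FPKM. The cholesterol exporter Abca1 was at 0.0278, 0.045 and 0.0545 FPKM, with Abcg1 at 4.24 ± 0.371 FPKM, and Ch25h was at 0.113 ± 0.0591 FPKM.

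Translation and the cytoskeleton made up many of the abundant transcripts. All 79 ribosomal protein genes were expressed, with a median of 144 FPKM and 4.21 ± 0.0686% of the summed FPKM. Rpl41 was the highest at 894 ± 29.1 FPKM, and the lowest were Rpl24 at 0.582 ± 0.145 FPKM, Rps10 at 1.36 ± 0.202 FPKM and Rpl21 at 1.28 ± 0.0804 FPKM. For 59 of the 79, over 20% of windows were shared with another gene, and the 20 others had a median of 116 FPKM. All 21 initiation and elongation factors were expressed, and Pabpc1, which binds poly(A) tails, had 568 ± 7.31 FPKM. Actb had 987, 946 and 996 FPKM and Pfn1, which feeds actin assembly, 457, 501 and 546 FPKM. Of 14 genes in common use as references, all were expressed. Actb, Rplp0 (616 ± 45 FPKM), Gusb (81 ± 3.64 FPKM) and Ywhaz (70.8 ± 0.575 FPKM) were among them, and Ppia was at 254, 168 and 144 FPKM and Gapdh as given above.

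The cells expressed the genes of the cell cycle. All 16 DNA replication genes and all 18 mitosis genes of the lists were expressed, with medians of 19 and 24.2 FPKM. Pcna, the sliding clamp of DNA replication, had 110.3, 105 and 108 FPKM and Mki67, a marker of cycling cells, 64.9, 61.2 and 50.7 FPKM. Library 3 was the lowest for Mki67. Ccna2 and Ccnb1, the cyclins of S phase and mitosis, had 34.6 ± 0.634 and 15.5 ± 0.424 FPKM, and Ccnd1, of G1, 103 ± 1.92 FPKM. Cdkn1a (p21), an inhibitor of cyclin-dependent kinases, was high as well at 119, 111 and 119 FPKM, and Cdkn2b (p15) was at 0. All 14 genes of endoplasmic reticulum stress were expressed, with Hspa5 (BiP) at 260.4 ± 6.18 FPKM, Atf4 at 177 ± 1.13 FPKM and Ddit3 (CHOP) at 15.9 ± 0.785 FPKM.

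The genes that the other groups of the series target were measured here without siRNA against them. Sfrp2, a secreted Wnt modulator, was at 0.0223, 0.0197 and 0.0218 FPKM, which is 2 reads in each library. That is under the floor of 3 reads set here, so its level rests on too few reads to be measured at this depth. The floor is given for Sfrp2 only, and other values near 0 in this report may also rest on too few reads. Rab6a, a small GTPase of Golgi transport, was at 24.3, 27.3 and 25.5 FPKM and rank 1806, and its relative Rab6b at 0.0393 ± 0.00254 FPKM, below the threshold. Of 16 Wnt ligands and secreted modulators in the table, 0 reached 0.5 FPKM, and Wnt3a, Frzb and Dkk1 were not found in it. Sfrp5 (0.239 ± 0.106 FPKM) and Sfrp4 (0.202 ± 0.078 FPKM) were the highest. Of 14 receptors, 4 were expressed, namely Ryk (15.1 ± 1.04 FPKM), Lrp5 (10.6 ± 0.685 FPKM), Lrp6 (6.43 ± 0.209 FPKM) and Fzd5 (2.32 ± 0.453 FPKM). Inside the cell, 10 of 15 pathway genes were expressed, with Ctnnb1 (β-catenin) at 48.7 ± 1.41 FPKM and Gsk3b at 6.79 ± 0.412 FPKM. The T cell factors Tcf7l2, Tcf7, Tcf7l1 and Lef1 and the Wnt target Axin2 were below the threshold, the highest being Tcf7l2 at 0.358 ± 0.0333 FPKM.

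The spread between the 3 libraries fell with level up to 1000 FPKM and was larger above it. The median CV of the expressed genes was 6.70%. It was 19.2% between 0.5 and 1 FPKM, 7.43% between 1 and 10 FPKM, 4.74% between 10 and 100 FPKM, 4.46% between 100 and 1000 FPKM and 5.98% at 1000 FPKM or more. The spread that counting of read pairs alone gives was 17.4%, 5.35%, 2.33%, 1.05% and 0.354% in these ranges, so the 2 were close at the lowest levels and apart at the highest. At 10 FPKM or more, 41 genes had a CV over 25%. Shared sequence was computed for 35 of them, of which 25 had over 20% of their windows shared with another gene, against 524 of 4093 (12.8%) of all genes at that level with a value. The 5 largest were Rps26-ps1 (68.6, 6.47 and 56.6 FPKM), Gm10123 (78.4, 367 and 509 FPKM), Sumo2 (36.1, 8.99 and 18.8 FPKM), Tuba1a (108, 43.6 and 47 FPKM) and Gm7846 (11.3, 15 and 4.21 FPKM). Sumo2 encodes a ubiquitin-like modifier and Tuba1a an α-tubulin, and the 3 others are not annotated as protein-coding. Library 2 was the lowest for Rps26-ps1, Sumo2 and Tuba1a, library 1 for Gm10123 and library 3 for Gm7846. The part of shared sequence in these spreads was not tested.

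**Figure D5:**
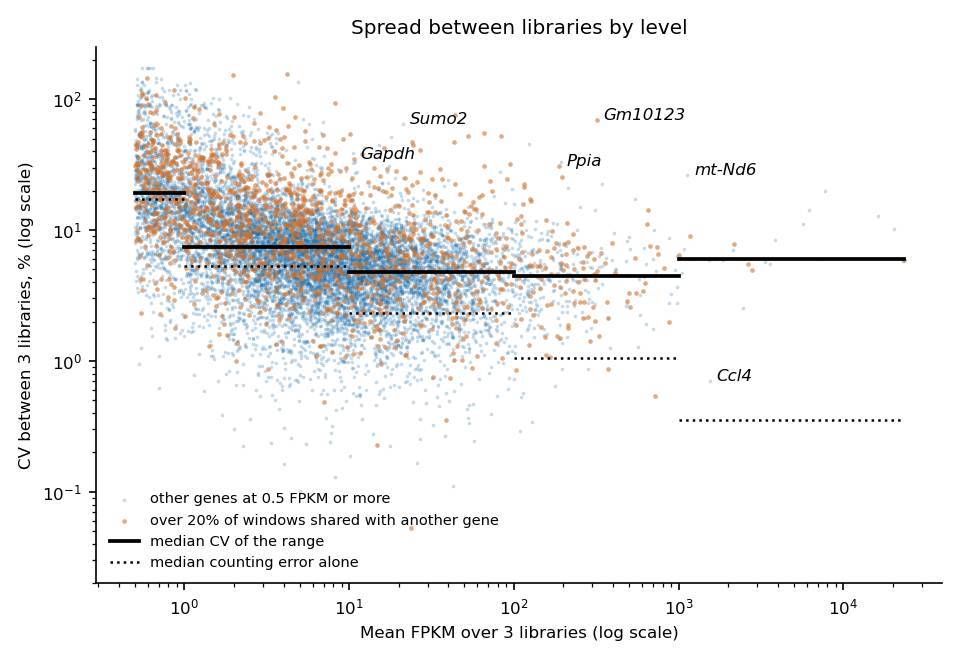
Coefficient of variation between the 3 NC siRNA libraries in percent (y axis, log scale) against mean FPKM (x axis, log scale) for the expressed genes. Orange points have over 20% of their windows of 100 bases shared with another gene, black lines are the median CV of each range of level, from 19.2% at the lowest to 5.98% at the highest, and dotted lines are the median of counting error alone.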

How the data were processed

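RNA from RAW264.7 cells was sequenced as paired-end mRNA libraries. The unit of the values that the authors deposited is FPKM, for Ensembl gene identifiers and without counts. The submitters' processing notes name HISAT2, featureCounts and Subread, and versions, genome build and annotation are not given in the sources used here. Values were used as deposited for the 3 NC siRNA columns (Python 3.11.15, numpy 2.4.6, pandas 2.3.3), and the 6 columns of the other groups were left out.

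Of 28137 genes, 27533 were named from GENCODE M21 (GRCm38). FPKM multiplied by exon length was a whole multiple of a single step, taken as 1 read, within 0.03 of a read for 27121 genes (98.5% of those named). The totals were 41608379, 47149258 and 42515253 reads in libraries 1, 2 and 3. This recovery was tested on simulated data. Counting error takes 2 reads as a pair and covers counting error only, since PCR copies are not independent molecules. Shared sequence is the percentage of 100-base windows of the principal transcript that occur, on either strand, in a transcript of another gene. A gene that shares much sequence, overlaps another gene or lies antisense to one has an uncertain level, since the handling of multi-mapped reads and of strand was not stated.

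No test was made. Means are given with the SD (n = 3). Orders of genes were read from whether the libraries overlapped. The threshold and the 69 gene lists were chosen with earlier results of these data known, and 25 of 961 listed entries were not found in the table and were not analysed here. Genes named were the 25 highest, the highest and lowest of each list, genes needed for a count of 5 or fewer, the 5 largest CVs at 10 FPKM or more, the 3 genes on each side of the threshold, the highest of each class of transcript, and Sfrp2 and Rab6a. Other genes were named after their values were seen, for their known roles. Alternatives were leaving out each library, median-of-ratios scaling, TPM, other thresholds, a geometric mean and leaving out mitochondrially encoded genes. Values of some single genes of the lists are not reported here.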

Additional observations from a re-analysis of the deposited data

How the results depend on the processing

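No paired analysis was possible because the levels are those of 1 group and come from no test, so the replicate numbers pair no samples. Leaving out each library in turn kept the count of expressed genes between 11964 and 11989 and the median CV between 5.12% and 5.81%, which with 2 libraries is the CV of a pair. The 10 highest genes were shared under each of these settings, median-of-ratios scaling and TPM, although Ccl3 and not mt-Co1 was the highest without library 1 or library 2. Rescaled to TPM with the threshold kept at 0.5, the median of the expressed genes was 10.9 and the median CV 8.26%, since TPM values are larger and 14227 genes passed. With a threshold of 1 FPKM, 10581 genes passed, with a median of 6.89 FPKM and a median CV of 6.11%. With a threshold of 0.1 FPKM, 15940 passed, and 11363 had at least 0.5 FPKM in every library. At 10 FPKM or more the median CV was 4.73%. With all genes above 0, the median level was 0.453 FPKM and the median CV 21.3%. Without mitochondrially encoded genes, the 10 highest genes took 20.3% and the 100 highest 38.5% of the summed FPKM. Of 69 lists, 44 had a median of at least 10 FPKM, and 43 to 50 had one under the alternatives run. The median SD of log2(FPKM + pseudocount) was 0.09 with a pseudocount of 0.1, 0.08 with 1 and 0.10 with 0.01. Short genes near 0.5 FPKM rest on few reads, and levels of genes with shared sequence stay uncertain at any depth.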

Other observations

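By class of transcript, 10020 of the expressed genes were protein-coding, which is 59.3% of the 16894 protein-coding genes in the table. Pseudogenes made up 893 of the expressed genes and 6.19 ± 0.194% of the summed FPKM, and for 543 of them over 20% of windows were shared with another gene. Long noncoding RNAs made up 607. Mir155hg, the host transcript of miR-155, had 151, 188 and 182 FPKM, with library 1 the lowest, and Malat1, a nuclear RNA, 178, 148 and 156 FPKM, with library 1 the highest. Gas5, a host of snoRNAs, had 34 ± 2.63 FPKM and Neat1, which builds paraspeckles, 15.8 ± 0.791 FPKM. AC158975.2 was the highest long noncoding RNA, at 752 ± 49 FPKM with 70.2% of windows shared. Of the 604 identifiers without a name in the annotation used here, 111 were expressed.

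Antigen receptor gene segments were expressed in 8 of 70 cases. Ighm, the constant region of the immunoglobulin μ chain, was at 118, 118 and 129 FPKM and rank 323. The diversity segment Ighd4-1 was at 103, 57.8 and 85.5 FPKM and the joining segment Ighj1 at 11.3, 21.6 and 19.5 FPKM, the latter from 25, 54 and 44 reads. The B cell genes Cd79a, Cd79b and Pax5 were at 0.291 ± 0.0437, 0.098 ± 0.088 and 0.0914 ± 0.00582 FPKM. The Y-linked genes Eif2s3y, Ddx3y, Uty and Kdm5d were expressed at 21.9 ± 1.23, 10.1 ± 0.51, 3.09 ± 0.129 and 2.21 ± 0.158 FPKM, and Xist was at 0.13 ± 0.0313 FPKM.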
